A study of Mus musculus with 8 samples.

Results

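The genes described here were 10 immediate early genes, most of them encoding transcription factors of the AP-1 and Egr type, in satellite cells (SCs), which are muscle stem cells. They were chosen by name, as Fos, Fosb and Fosl2 (the Fos family), Jun, Junb and Jund (the Jun family), and Egr1, Atf3, Ier2 and Ier3 (other early genes), from the 52535 gene symbols of the table, and all 10 had reads and were among the 4328 genes tested. RNA was sequenced from SCs of 4 control and 4 exercise libraries, which are named control 1 to 4 and exercise 1 to 4. All mice were male C57B/6J mice of 10 weeks at the start, control mice stayed sedentary, and exercise mice were trained for 4 weeks, on 4 days per week, with 30 min per day of treadmill running (12 m per min). In both groups the tibialis anterior muscle was digested with collagenase and then dispase, and about 800 cells that were negative for CD45, CD11b, CD31 and Sca1 and positive for CD34 and integrin α7 were sorted for each library. The study's legends count mice as the replicates, but the labels name no animal for a library, and p-values measure only the spread between these libraries.

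Immediate early genes are switched on within minutes of a growth factor, stretch or stress signal, without new protein synthesis, when MAP kinases act on factors such as SRF, its Elk partners and CREB that already sit on their promoters. Fos and Jun proteins pair through leucine zippers to form AP-1, which binds DNA, and Egr1 is a zinc finger factor that binds GC-rich sites. In muscle they mark SCs that leave quiescence, and they are also known to be induced while muscle is being digested, a step that both groups went through and whose part in these levels was not tested. The study followed MAP kinase signaling in SCs of exercise mice, and these genes are among the transcripts that such signaling reaches.

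The values are FPKM, reads divided by gene length and by a library size. Control libraries held 2339966 to 3013354 reads on 5169 to 7307 genes, and exercise libraries 1011737 to 1200221 reads on 2348 to 3289 genes. Mitochondrial transcripts took 2.09% to 15.3% of the reads in control and 7.56%, 7.85%, 50.2% and 68.7% in exercise, with the highest share in exercise 4. It is not certain that all 8 libraries were separate samples. Exercise 1 and exercise 2 differed little, with a chi-square per degree of freedom of 3.86 over their genes, where other pairs of the same group gave 82.6 to 711. The reads of control 4 resembled a blend, in which genes seen in control 1 and absent from control 3 appeared at a median 0.281 of their former share, and those seen in control 3 and absent from control 1 at 0.714. Exercise 3 stood likewise between exercise 1 (0.299) and exercise 4 (0.677). Results are therefore also given for 7 samples, in which exercise 1 and 2 were merged by averaging, and for 5 samples, in which control 4 and exercise 3 were dropped as well. The defining SC markers Pax7, Itga7, Cdh15, Calcr and Notch3 had no read in any library, and Myod1 and Myf5 had none in exercise, so these defining markers were at or near 0. A listed 0 need not mean that a gene is absent, since the fibre gene Tnnc2 was also at 0 in all libraries beside its partner Tnni2 at 468 to 6738 FPKM. Cd34, on which the cells were sorted, had reads in all 8 libraries, with 0.12 to 1.48 FPKM in control and 1.90 to 9.63 FPKM in exercise. All 15 SC markers together summed to 43.7 to 73.6 FPKM in control and 82.1 to 144 FPKM in exercise, most of it from Sdc4, Des and Heyl, which other cells also express, against 19894 to 107995 FPKM for 14 genes of muscle fibres.

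By the mean of log2(FPKM + 1), 9 of the 10 genes were lower in exercise mice and 1, Jund, was higher, while with quantile normalization 5 were lower and 5, with Fosl2, Jun, Junb and Ier2 now among them, were higher. With a Benjamini-Hochberg adjusted p under 0.05 in limma over all genes tested, Ier3 and Atf3 fell and Jund rose. Among all genes tested, 26.8% of genes fell, 8.78% rose and 35.6% did either by this test, so 3 of 10 is a share near the background. In 4 genes (Fos, Fosl2, Atf3 and Ier3) no exercise library reached the lowest control library, and no gene had the reverse, where 24.0% of all genes were separate in the lower and 7.62% in the higher direction. The median log2 fold change was -0.96 for the 10 genes and -1.42 for all genes tested, and the order of these medians turned with the filter, to -0.96 and -0.32 with none, while with quantile normalization they were 0.0064 and -0.44. In bulk RNA, fewer cells that express a gene and less of its RNA per cell cannot be told apart.

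**Figure D1:**
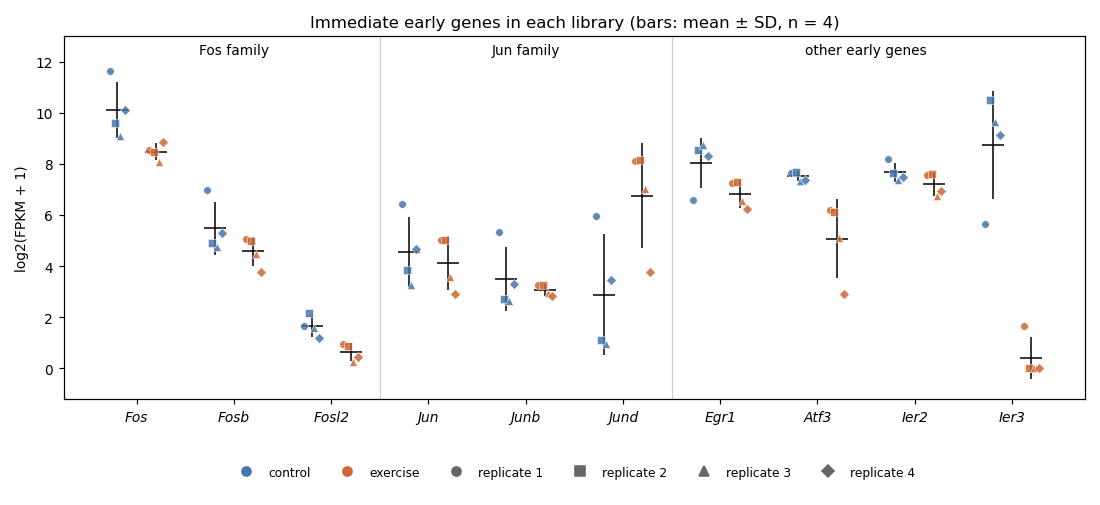
Level of each gene in each library as log2(FPKM + 1), with control libraries in blue, exercise libraries in orange, a marker shape for each replicate number, and bars for the mean and SD of 4 libraries. Fos, Fosl2, Atf3 and Ier3 had all 4 exercise points below the control points, Jund rose with its groups overlapping, and control 1 was the highest library for Fos, Fosb, Jun and Junb.

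Fos (chromosome 12 of GRCm38, 85473890 to 85477273), a highly inducible AP-1 partner, had the highest mean of the 10 genes in both groups, but in control this rests on control 1, without which the mean of Ier3 (938 FPKM) was above that of Fos (809 FPKM). It had 3163, 779, 542 and 1106 FPKM in control 1 to 4 and 368, 354, 267 and 468 FPKM in exercise 1 to 4. All 4 exercise libraries lay below all 4 control libraries, and control 1 stood well above the other controls. The mean was 1398 ± 1199.6 FPKM (SD, n = 4) in control and 364 ± 82.3 FPKM (SD, n = 4) in exercise, 3.84-fold lower, and 2.22-fold lower without control 1. The log2 fold change was -1.62 ± 0.64 (SE) and missed the threshold (limma adjusted p = 0.067), while the exact two-sided permutation p was 0.0286, the smallest that 4 libraries against 4 allow. Ranked among the genes of its own library, Fos stood at place 23, 85, 97 and 45 in control and 115, 118, 162 and 159 in exercise, and these ranks did not overlap either (exact permutation p = 0.0286). The log2 fold change was negative in all 19 other settings, from -2.09 to -1.12, and had an adjusted p under 0.05 in 1 of them (0.0462), with each library scaled to its reads outside the mitochondrial genome. Over the 7 samples defined above the limma adjusted p was 0.126 and over the 5 samples 0.508. The permutation tests count all 8 libraries as separate samples, which is not certain.

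Fosb (chromosome 7, 19302696 to 19310051), a Fos protein best known for its induction in neurons, followed Fos at a lower level, with 125, 28.7, 25.9 and 37.8 FPKM in control and 32.0, 30.7, 21.2 and 12.8 FPKM in exercise. The groups overlapped, since exercise 1 and 2 lay above control 2 and 3. Its log2 fold change was -0.90 ± 0.75 (SE, adjusted p = 0.327 by limma, exact permutation p = 0.2). Fosl2 (chromosome 5, 32135801 to 32157842), also called Fra-2, a Fos relative without the strong activation domain of Fos, was the least abundant in control. It had 2.16, 3.51, 2.01 and 1.24 FPKM in control and 0.927, 0.842, 0.186 and 0.358 FPKM in exercise. The groups were apart (exact permutation p = 0.0286), but the exercise values rest on 15, 13, 2 and 1 reads. Its log2 fold change was -1.02 ± 0.50 (SE, adjusted p = 0.126 by limma), and quantile normalization turned the sign to 0.84. Fos made up 95.1% to 96.6% of the summed FPKM of the family in control and 91.8% to 97.3% in exercise, so the family total was in the main that of Fos.

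The windows of 250 bases before the RefSeq start site of Fos, Fosb and Ier3 (GRCm38.p6) are shown, Fos and Fosb as genes with matches to 2 of the motifs searched and Ier3 as the gene with the largest change. Capitals mark exact matches on the strand of the gene to TGACG, the short form of the CREB element, to TATAAA, the TATA box, or to GCGNGGGCG, an Egr site. The window of Fos lies at chr12:85473640-85473889 on the plus strand, that of Fosb at chr7:19310046-19310295 on the minus strand and that of Ier3 at chr17:35821463-35821712 on the plus strand.
Fos: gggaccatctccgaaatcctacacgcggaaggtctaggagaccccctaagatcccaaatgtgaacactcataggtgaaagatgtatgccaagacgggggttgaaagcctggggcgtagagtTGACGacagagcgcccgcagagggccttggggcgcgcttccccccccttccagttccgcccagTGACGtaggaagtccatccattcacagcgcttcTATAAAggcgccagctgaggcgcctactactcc
Fosb: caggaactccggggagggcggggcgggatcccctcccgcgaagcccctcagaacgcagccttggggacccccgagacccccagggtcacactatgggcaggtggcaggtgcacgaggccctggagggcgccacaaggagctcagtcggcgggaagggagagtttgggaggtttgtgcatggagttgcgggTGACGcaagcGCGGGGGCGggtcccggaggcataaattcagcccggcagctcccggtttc
Ier3: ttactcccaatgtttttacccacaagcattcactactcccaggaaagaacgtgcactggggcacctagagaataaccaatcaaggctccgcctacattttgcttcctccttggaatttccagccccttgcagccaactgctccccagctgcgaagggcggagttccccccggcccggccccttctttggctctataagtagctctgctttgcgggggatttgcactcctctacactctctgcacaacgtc
Fos held TGACG 129 and 66 bases before its start and TATAAA 33 bases before it. Fosb held TGACG 60 bases and an Egr match 50 bases before its start, and Ier3 held none of the motifs. Both strands were searched in windows from 250 bases before to 50 bases after the start for 8 of the 10 genes. Of these, 4 (Fos, Fosb, Junb and Atf3) held TGACG, as did 20.8% of 32851 windows of the same length, and 2 (Fosb and Fosl2) held the Egr site, found in 5.55% of windows. TATAAA was in Fos and Junb and in 13.6% of windows. None held the full CREB element TGACGTCA (1.79% of windows), the AP-1 site TGANTCA (7.81%) or the CArG box bound by SRF (1.63%), and Jun, Jund and Ier3 held no match at all. For Atf3, Jund and Fosl2 the RefSeq start lies 34706, 1210 and 671 bases from the start of the gene in the table. A match is only a run of letters, and elements outside the window were not searched.

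In the Jun family the balance between members changed. Jund (chromosome 8, 70698949 to 70700616), the Jun protein that resting cells hold most steadily and that acts against growth in several cell types, had 61.7, 1.17, 0.922 and 10.1 FPKM in control and 278, 281, 130.3 and 12.5 FPKM in exercise. Exercise 1 to 3 lay above every control library, but exercise 4 lay below control 1, so the groups overlapped. The values of control 2, control 3 and exercise 4 rest on 6 reads each. The mean rose from 18.5 ± 29.1 to 175 ± 129 FPKM (SD, n = 4), 9.50-fold, or 43.2-fold without control 1, and the log2 fold change was 3.89 ± 1.36 (SE, adjusted p = 0.0495 by limma, exact permutation p = 0.0571). It was positive in all 19 other settings, from 3.24 to 4.92. The adjusted p was under 0.05 in 6 of them. Without 1 library it was under 0.05 only without control 1 (0.014) and without exercise 4 (0.0205), and it was 0.113 over the 7 samples and 0.471 over the 5 samples defined above.

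Jun and Junb did not show this rise. Jun (chromosome 4, 95049034 to 95052222), the main partner of Fos, had 84.5, 13.5, 8.52 and 24.2 FPKM in control and 31.7, 31.2, 11.03 and 6.53 FPKM in exercise. Control 1 was the highest library and exercise 4 the lowest, and the other libraries of both groups were interleaved. The log2 fold change was -0.41 ± 0.90 (SE, adjusted p = 0.72 by limma, exact permutation p = 0.714), and it was 0.21 without control 1. Junb (chromosome 8, 84974484 to 84978718), a Jun protein that weakens the activity of Jun, had 38.8, 5.53, 5.23 and 8.94 FPKM in control and 8.58, 8.44, 6.66 and 6.03 FPKM in exercise. Apart from control 1, all libraries lay between 5.23 and 8.94 FPKM. The log2 fold change was -0.43 ± 0.76 (SE, adjusted p = 0.652 by limma, exact permutation p = 0.83), and it was 0.18 without control 1. Reads of Junb are uncertain, since Prdx2 overlaps it on the opposite strand and the sources do not say whether counting used strand. Jund overlaps the antisense gene Gm11175 and Jun the antisense gene Junos, which had 0 and 2 reads in all.

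Jund made up 33.3%, 5.81%, 6.28% and 23.3% of the summed FPKM of Jun, Junb and Jund in control 1 to 4 and 87.3%, 87.6%, 88.0% and 49.8% in exercise 1 to 4. The groups did not overlap in this share, but the shares of exercise 4 rest on 6 reads of Jun, 4 of Junb and 6 of Jund. Jun made up 45.7% to 66.8% of the family in control and 7.45% to 26.1% in exercise, again with no overlap. The summed FPKM of the Fos family was 17.8, 40.1, 38.8 and 26.5 times that of the Jun family in control. It was 1.26, 1.20, 1.95 and 19.2 times in exercise, where exercise 4, with these few reads of the Jun family, lay among the controls. A ratio within a library does not depend on how the library was scaled, but it does not say which part of it moved.

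**Figure D2:**
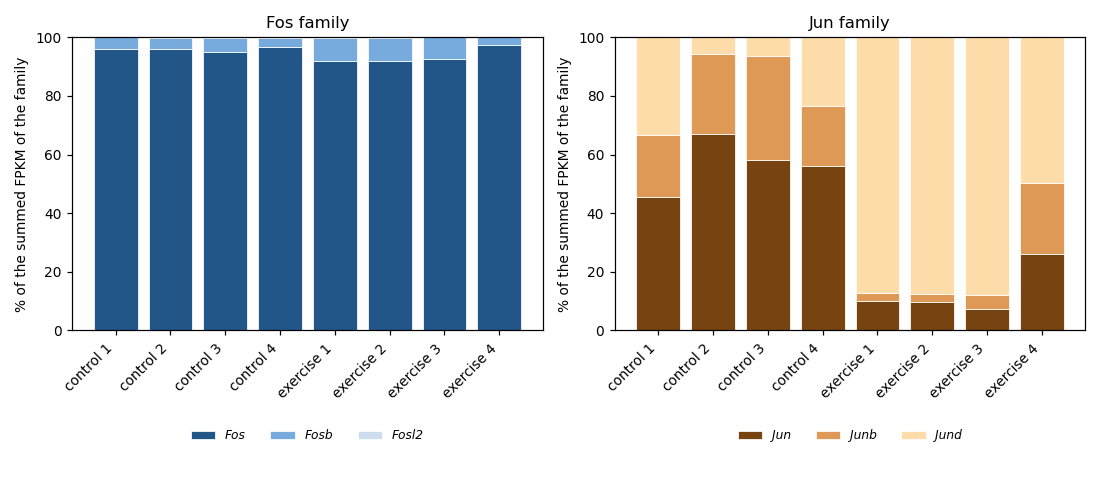
Share of each gene, in percent of the summed FPKM of the Fos family (left) and of the Jun family (right), with 1 bar for each library. Fos filled at least 91.8% of its family in every library, while Jund filled 5.81% to 33.3% of the Jun family in control and 49.8% to 88.0% in exercise. The Jun family shares of exercise 4 rest on 6 reads of Jun, 4 of Junb and 6 of Jund.

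Ier3 (chromosome 17, 35821684 to 35822923), also called IEX-1, an early gene induced by NF-κB and growth factors that affects the survival of cells, had the largest change. It had 49.7, 1456, 804 and 553 FPKM in control 1 to 4, from 129, 5041, 3548 and 2494 reads. In exercise 1 it had 2.12 FPKM from 4 reads, and exercise 2, 3 and 4 had no read. The groups were far apart in every library but control 1, which lay at 49.7 FPKM, above the 9.20 FPKM to which 3 reads, the limit that counting error sets for a count of 0, would correspond in exercise 4. With the 3 libraries at 0 set to 3 reads, exercise was at least 186-fold below control on average, a bound of 122-fold if control 2 is dropped. The fitted log2 fold change was -8.33 ± 1.07 (SE, adjusted p = 0.000997 by limma, exact permutation p = 0.0286), which depends on the pseudocount of 1 FPKM. In the 19 other settings it ran from -10.93 to -7.73, with an adjusted p under 0.05 in 18 of them. The exception was the fit over 5 samples, with an adjusted p of 0.175. Kdr, an endothelial gene, ran in the same order over the control libraries as Ier3, with 0, 2994, 1669 and 1076 FPKM in control 1 to 4 and at most 0.530 FPKM in exercise. Pecam1, Cdh5, Tie1, Emcn, Egfl7, Esam and Cldn5, 7 of the 10 endothelial markers, had no read in any library, and Tek was higher in exercise, with at most 0.0925 FPKM in control and 4.42 to 25.8 FPKM in exercise. The part of endothelial cells in the values of Ier3 was not tested.

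Atf3 (chromosome 1, 191170296 to 191218039), a partner of Jun proteins that is induced by stress and mostly represses, fell as well. It had 201, 206, 161 and 166 FPKM in control and 72.2, 67.5, 33.5 and 6.44 FPKM in exercise. The control libraries were close together, and all 4 exercise libraries lay below them, with exercise 4 (4 reads) the lowest. The mean fell from 184 ± 23.4 to 44.9 ± 30.9 FPKM (SD, n = 4), 4.09-fold. The log2 fold change was -2.45 ± 0.82 (SE, adjusted p = 0.0444 by limma, exact permutation p = 0.0286). Its rank in its library was 270 to 304 in control and 371 to 1310 in exercise, which did not overlap (exact permutation p = 0.0286). The log2 fold change was negative in all 19 other settings, from -3.04 to -1.71, but the adjusted p was under 0.05 in 4 of them. Without exercise 4 it was 0.0198 with a log2 fold change of -1.72, and without any 1 of the other libraries it was 0.0574 to 0.105. Over the 7 samples it was 0.0707 and over the 5 samples 0.471.

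Egr1 (chromosome 18, 34859823 to 34864984), which is induced by ERK through SRF and Elk factors, had 94.8, 369.7, 423 and 315 FPKM in control and 150.4, 156, 91.5 and 73.5 FPKM in exercise. Control 2, 3 and 4 lay above every exercise library, and control 1 lay among the exercise libraries. The mean was 301 ± 144 FPKM in control and 118 ± 41.5 FPKM in exercise (SD, n = 4), with a log2 fold change of -1.22 ± 0.69 (SE, adjusted p = 0.165 by limma, exact permutation p = 0.0857). Without control 1 the log2 fold change was -1.70 with an adjusted p of 0.0282, and in the 18 remaining settings the adjusted p stayed above 0.05. Ier2 (chromosome 8, 84661331 to 84662852), a nuclear early gene with less known roles, had 292, 196, 163 and 179.6 FPKM in control and 189, 192, 105 and 121 FPKM in exercise, and the groups overlapped. The mean was 208 ± 58.0 FPKM in control and 152 ± 45.4 FPKM in exercise (SD, n = 4), with a log2 fold change of -0.46 ± 0.57 (SE, adjusted p = 0.509 by limma, exact permutation p = 0.229).

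**Figure D3:**
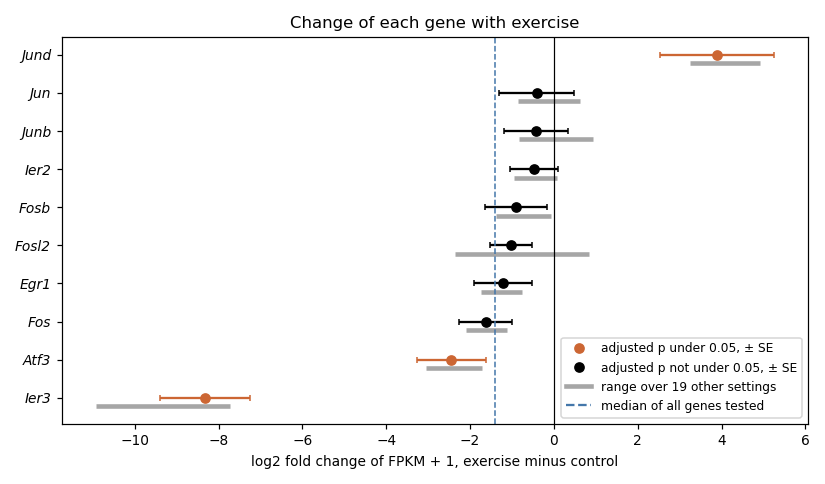
Log2 fold change of FPKM + 1, exercise minus control, with its standard error, in orange for an adjusted p under 0.05, the range over 19 other settings as a grey bar and the median of all genes tested (-1.42) as a dashed line. Jund lay above 0 and Ier3, Atf3, Fos, Egr1 and Fosb below 0 in all settings, while the bars of Jun, Junb, Ier2 and Fosl2 crossed 0.

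Read against the median of all genes tested, which moved with the setting, Ier3 was lower and Jund higher in all settings, by a log2 difference of -6.91 (-8.35 to -6.26 in the 19 others) for Ier3 and 5.30 (4.21 to 6.90) for Jund. The other 8 genes lay on both sides of that median depending on the setting. Atf3 was at -1.03 and below the median in 18 of the 19 others, with 0.08 at a pseudocount of 0.1, and Fos was at -0.21 and below it in 16, from -1.31 with no filter to 0.96 at a pseudocount of 0.1. In all, 3 of the 10 genes were below the median as reported, 9 with no filter and 1 at a pseudocount of 0.1. The 10 genes together took 0.987%, 0.707%, 0.634% and 0.805% of the reads of control 1 to 4 and 0.439%, 0.435%, 0.154% and 0.044% of those of exercise 1 to 4. With mitochondrial reads left out, the shares were 0.749% to 1.01% in control and 0.141% to 0.477% in exercise. Neither kind of share overlapped between the groups.

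The order of the genes by mean FPKM, a level per length, was Fos, Ier3, Egr1, Ier2, Atf3, Fosb, Jun, Jund, Junb and Fosl2 in control. Among neighbours in that order, the ranges over libraries were apart only between Atf3 and Fosb and between Junb and Fosl2. In exercise the order was Fos, Jund, Ier2, Egr1, Atf3, Fosb, Jun, Junb, Fosl2 and Ier3, and only Egr1 and Atf3, and Junb and Fosl2, were apart. Between the orders, Ier3 moved from place 2 to place 10 and Jund from place 8 to place 2.

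Over the 8 libraries, Fosb, Jun and Junb varied together, with a Pearson r of log2(FPKM + 1) of 0.91 for Fosb and Junb, 0.90 for Fosb and Jun and 0.87 for Jun and Junb. All were highest in control 1. Fosl2 and Egr1 went with Ier3, with an r of 0.85 and 0.84, and Jund ran against Ier3 with -0.80. These are descriptions over 8 libraries that share a group, a size factor and possibly, in part, their reads. The genes whose values were most like those of Fos were Sec13, Pfkfb3, Ccdc43, Psat1 and Dynlt1a, each with an r of 0.98 over the 8 libraries. The last 4 of these had no read in exercise, like 1314 of the 4328 genes tested, and all 5 were highest in control 1. Fosb came at place 867 of 4327 genes in this likeness, so the other AP-1 genes were not the nearest to Fos here.

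Other early genes did not move as a block. Of a list of 55 further early genes, written by role, 44 were tested, 3 rose and 4 fell with an adjusted p under 0.05 in limma, and the median log2 fold change was -0.19, against -1.42 for all genes. The called share was 15.9% beside 35.6% of all genes tested, and with no filter 7 of 50 genes beside 9.3% of all, with medians of -0.32 in both. With quantile normalization the median was 0.81, with 5 genes that rose and 3 that fell, and without exercise 4 the calls were 6 and 5. Tob1, which restrains growth and mRNA stability, had 0.953, 1.998, 0.672 and 1.21 FPKM in control and 813, 869, 421 and 48.5 FPKM in exercise. All exercise libraries were far above all controls, with a log2 fold change of 7.34 ± 0.97 (SE, adjusted p = 0.00112). Errfi1, a feedback inhibitor of the EGF receptor, had 29.7 to 67.7 FPKM in control and 169 to 572 FPKM in exercise, 8.15-fold higher (adjusted p = 0.0119). Zfp36l2, which destabilizes mRNA, had 0.123 to 0.555 FPKM from at most 6 reads in control and 3.02 to 42.3 FPKM in exercise (log2 fold change 2.93, adjusted p = 0.0256). Nr4a1, the early nuclear receptor, was named after its values were seen, as it is often read beside Fos. It had 34.6 to 72.1 FPKM in control and 537, 522, 285 and 26.6 FPKM in exercise, with an adjusted p of 0.107.

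Among the early genes that fell, Rgs2, an inhibitor of G protein signaling, had 8.77 to 26.7 FPKM in control and no read in exercise, at least 14.6-fold lower against 3 reads in each exercise library (adjusted p = 0.00186). Dusp5, a nuclear phosphatase of ERK, had 4.94 to 31.8 FPKM in control and no read in exercise, at least 10.3-fold lower (adjusted p = 0.00366). Of all 4328 genes tested, 1314 had no read in any exercise library and 203 none in any control library. Phlda1 had 4.55 to 29.5 FPKM in control and 1 read in exercise, in exercise 4 (log2 fold change -3.49, adjusted p = 0.00934). Nr4a2, the fourth, had 0.322, 742, 431 and 252 FPKM in control and at most 1.39 FPKM in exercise, and its groups overlapped through control 1. Of these 7 genes, Tob1, Rgs2 and Dusp5 had an adjusted p under 0.05 in 18 of the 19 other settings, Phlda1 in 17, Zfp36l2 in 15, Errfi1 in 13 and Nr4a2 in 9.

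Of 31 genes listed as relatives, most with a leucine zipper or an Egr zinc finger, 10 were tested. Of these, Nab1 has neither, and 1, Maff, a small Maf protein, fell (adjusted p = 0.0125). It had 4.73, 11.4, 44.3 and 31.7 FPKM in control and 0.847, 1.77, 0 and 0 FPKM in exercise, so all exercise libraries lay below the controls. The median log2 fold change of the 10 was 0.47, but it was -0.38 with read totals, -0.06 with no filter, -0.09 without exercise 3, -0.56 without exercise 4 and 1.72 with quantile normalization, where the 1 call was a rise and not Maff. Of 61 genes of the MAP kinase and SRF pathway, 21 were tested and 10 fell, with a median of -1.99, beside 26.8% of all genes that fell. Among them were the adaptor Grb2, the kinases Map2k2, Mapk7, Map3k7 and Mapkapk2, and Elk4, of which Mapk7 is uncertain, since the gene Mfap4 overlaps it. The groups did not overlap for Map2k2, Map3k7, Mapkapk2 and Elk4. Map2k2, the kinase MEK2 that activates ERK, had 14.2, 13.5, 8.82 and 8.996 FPKM in control and no read in exercise, at least 15.4-fold lower (adjusted p = 0.00214). In all, 8 of the 21 genes tested from this list had no read in exercise, beside 1314 of all 4328 genes tested. Elk4, a partner of SRF, had 2.45, 61.1, 33.1 and 20.4 FPKM in control and 0, 0.0978, 0.985 and 1.62 FPKM in exercise (adjusted p = 0.0189). Mapkapk2, a kinase that p38 activates, had 9.77 to 63.5 FPKM in control and 0.890 to 6.85 FPKM in exercise (adjusted p = 0.044). For Map3k7, the kinase TAK1, control 2 had 0.254 FPKM, less than 3 reads would give in exercise 4 (1.62 FPKM). This list depended on the libraries, since 1 gene passed without control 3, without control 4, without exercise 1, without exercise 2 or without exercise 3, 4 passed without exercise 4, and 6 without control 2. Over the 7 samples 1 gene passed, and over the 5 samples 0 genes of the 3 lists passed in limma, with 4 early genes, 0 relatives and 1 pathway gene at an unadjusted p under 0.05.

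**Figure D4:**
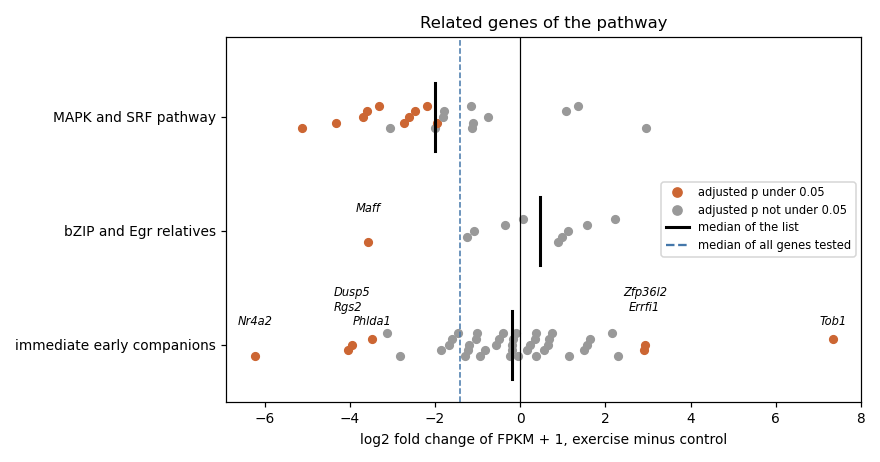
Log2 fold change of FPKM + 1, exercise minus control, of each tested gene of 3 lists. These hold 44 further early genes, 10 genes listed as leucine zipper and Egr relatives and 21 genes of the MAP kinase and SRF pathway. Black bars give the median of each list (-0.19, 0.47 and -1.99) and the dashed line that of all genes tested (-1.42), where quantile normalization turned the first to 0.81 and read totals the second to -0.38, and of the orange genes, with an adjusted p under 0.05, those of the pathway list all lay below 0.

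Markers of other cells and of stress differed between libraries beside these results. The 10 heat shock genes summed to 776 to 1039 FPKM in control and to 738, 714, 6650 and 33806 FPKM in exercise, with the high sums in exercise 3 and 4. These 2 sums were nearly all Dnajb1, which had 6259 and 32894 FPKM there and 219 to 334 FPKM in the other libraries. Hspa1b, Hspa8, Hspe1 and Hsph1 were also highest in exercise 4, with 386, 395, 65.9 and 6.69 FPKM. Hspa1a, Hspd1 and Dnaja1 were lowest in exercise 4, with 5.85, 0 and 0 FPKM. The 14 muscle fibre genes summed to 40069 to 90721 FPKM in control and to 19894 to 107995 FPKM in exercise, with the highest sum in exercise 4. The library size behind the FPKM of exercise 4 was 288190, beside 1155592 reads, so its FPKM stand high for its reads. The 10 fibro-adipogenic genes summed to 2592 to 3589 FPKM in control and to 3595 to 9403 FPKM in exercise, with Gsn alone at 1484 to 7201 FPKM in exercise and 1173 to 1540 FPKM in control. Pdgfra went the other way, with 9.44 to 35.0 FPKM in control and 2.42 to 7.99 FPKM in exercise, as did Mfap5, and Pi16 had no read in exercise. All 11 immune markers had no read in any library. The 9 smooth muscle genes summed to 3.61 to 47.1 FPKM in control and 5.72 to 89.3 FPKM in exercise, and the 6 tenocyte genes to 487 to 1019 FPKM and 243 to 1405 FPKM. Of these, Myh11 had no read in control and 70.1, 71.5, 35.6 and 3.14 FPKM in exercise 1 to 4, and Scx had at most 0.442 FPKM in control and 100.6, 102, 49.2 and 3.05 FPKM in exercise, with the same libraries high and low as for Jund in exercise (278, 281, 130.3 and 12.5 FPKM). Among the other smooth muscle genes, Pdgfrb had 2.02 to 4.65 FPKM in control and 17.5, 17.4, 7.90 and 0.633 FPKM in exercise. Acta2 went the other way, with 0.734, 0, 43.3 and 35.1 FPKM in control and at most 2.03 FPKM in exercise. Mylk had 0.730 to 1.80 FPKM in control and no read in exercise, and 5 of the 9 had no read in any library. The 5 Schwann cell genes summed to at most 20.6 FPKM and the 5 erythroid genes to at most 119 FPKM. In exercise 4 Dnajb1 and the fibre genes were highest in FPKM, and the mitochondrial share was highest. Jund, Atf3, Egr1, Fosb, Jun and Junb were the lowest there of the exercise libraries. Fos was the highest there in FPKM but the lowest as a share of reads outside the mitochondrial genome, with 0.148%, 0.142%, 0.117% and 0.0876% in exercise 1 to 4. The part of these differences in the values of the 10 genes was not tested.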

How the data were processed

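The authors sequenced amplified libraries of sorted SCs and deposited 1 table of FPKM values for 52636 genes in 8 libraries. According to the methods and the submitters' processing notes, they aligned reads with bowtie 0.12.9, computed FPKM with Cufflinks 2.1.1, counted with HTSeq and tested with DESeq2; whether counting used strand is not given in the sources used here. Multiplied by gene length, the deposited FPKM of each library were whole multiples of 1 step for 100% of values, within a tolerance of 0.001, which gave back the reads. The library size in them is a median-of-ratios size factor times the geometric mean of the read totals, not the read total itself. Depth was 1011737 to 3013354 reads. A count of 0 was taken to allow 3 reads, a limit from counting error alone, because amplification copies molecules. Summing the rows of each symbol gave 52535 genes.

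Groups came from the sample labels, which give no batch or date. The test was limma 3.58.1 (R 4.3.3) with a variance trend, run on log2(FPKM + 1) of the 4328 genes whose mean reached 1 FPKM. P-values were adjusted by Benjamini-Hochberg over these genes and read at 0.05. A fold change on this scale understates the change of low genes. Each of the 10 genes also had an exact permutation test, two-sided, in which libraries were assigned to groups in all 70 ways. The fit was tested on simulated data. The 10 genes and the lists were chosen with earlier results of these data known. The text names all 10 and, from each list, genes that passed limma and had separate groups, at most 4 of the largest rises and 4 of the largest falls, the 5 genes most like Fos, and defining markers; other genes named were chosen after their values were seen. Promoter windows came from RefSeq tables of GRCm38.p6, which matched 8 of the 10 genes (not Egr1 and Ier2). The alternatives were a pseudocount of 0.1, 2 other filters, 3 other scalings, no trend, voom on the recovered reads, a replicate block, leaving out libraries, and ranks or percentiles in the permutation test, of which ranks were added after seeing the data. Figures used Python 3.11.15 with matplotlib 3.10.9.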

Additional observations from a re-analysis of the deposited data

Results flagged for a closer look

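Ier3 in exercise 1 stood apart from the other exercise libraries, with a log2(FPKM + 1) of 1.64 from 4 reads, against 0 in exercise 2, 3 and 4. It was the 1 distant library among 26 groups of 4 that were checked, where chance gives about 1 in 20. A value of 4 reads lies near the 3 reads that a count of 0 allows, so exercise 1 cannot be told apart from the other exercise libraries beyond counting error. Exercise 2, which is close to exercise 1 in its other genes, had no read of Ier3.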

How the results depend on the processing

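Of the 10 genes, Jund stayed higher and Ier3, Atf3, Fos, Egr1 and Fosb stayed lower in exercise in all 19 other settings. The sign changed with quantile normalization for Fosl2 (0.84), Jun (0.61), Junb (0.93) and Ier2 (0.074), and without control 1 for Jun (0.21) and Junb (0.18), whose values without 1 library ran from -0.84 to 0.21 and from -0.72 to 0.18. On ranks within a library, chosen after seeing the data, the direction also turned for Fosl2 (exact permutation p = 0.286), Jun (0.571), Junb (0.257) and Ier2 (0.8). As percentiles among genes with reads, Ier2, Fosb and Junb had an exact permutation p of 0.0286, but exercise libraries had reads on fewer genes, which lowers percentiles at a fixed rank.

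Of the 10 genes, 3 had an adjusted p under 0.05 as reported and 4 with at least 1 FPKM in 4 libraries. With no filter, with scaling to read totals, with voom and over the 7 samples in which exercise 1 and 2 were averaged, 1 passed. Over the 5 samples that remained without control 4 and exercise 3, 0 passed (1 at an unadjusted p under 0.05), and 1 to 3 passed without 1 library. Among all genes tested, 1541 passed, 840 with no filter, 941 with quantile normalization (566 higher and 375 lower), 596 over the 7 samples and 0 over the 5 samples (469 at an unadjusted p under 0.05), and 527 to 1899 without 1 library. For the further early genes (7) these were 0 in that last fit and 5 to 12 without 1 library, with 12 without control 1 and 11 without exercise 4. For the relatives (1) they were 0 and 0 to 3, with 0 without exercise 3, 2 without exercise 4 and 3 without control 1. For the pathway list (10) they were 0 and 1 to 11, 1 over the 7 samples, 3 with no filter, with at least 1 FPKM in 4 libraries and with quantile normalization, and 5 with the replicate block. For all genes tested the median change moved from -1.42 to -2.59 with a pseudocount of 0.1, -0.32 with no filter, -0.44 with quantile normalization, -1.57 with read totals and -2.21 with voom. The cause of these moves was not tested.

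Same-numbered libraries correlated by -0.02 to 0.04 in their deviations from the group means, and 6 of 8 libraries correlated best with their own number. Whether they share more than a number cannot be told, since the labels give no batch or date. With the replicate block 1059 genes of the table and 2 of the 10 genes passed, Ier3 (adjusted p = 0.00269) and Jund (0.0461), and Atf3 did not (0.0747). Depth limits Fosl2, Junb, Atf3, Jun and Jund, whose lowest libraries held 1 to 6 reads, and Ier3, with no read in 3 libraries.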

Other observations

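Of the further early genes, 4 had separate groups without passing the adjusted test, all lower in exercise, and were named after their values were seen. With the genes that passed, 7 of 44 were separate and lower, beside 24.0% of all genes tested. Klf4, a zinc finger factor, had 7.08 to 11.6 FPKM in control and 2.28 to 6.58 FPKM in exercise (limma adjusted p = 0.284). Gadd45a, a growth arrest gene, had 4.36 to 11.1 FPKM in control and 1.02 to 1.97 FPKM in exercise, from at most 5 reads there (adjusted p = 0.0602). Pim1, a survival kinase, had 6.45 to 12.8 FPKM in control and 0 to 4.10 FPKM in exercise (adjusted p = 0.0901), and Bhlhe40, a clock-related repressor, had 38.1 to 60.6 FPKM in control and 8.85 to 23.6 FPKM in exercise (adjusted p = 0.0944). For each the exact permutation test, two-sided, gave p = 0.0286. Separate groups of 4 against 4 libraries always give this value, so it is no further support for genes chosen as separate. The early response phosphatase Dusp1 had 29.3 ± 18.4 FPKM in control and 17.9 ± 9.82 FPKM in exercise (SD, n = 4, limma adjusted p = 0.582), and the mRNA decay factor Zfp36 had 30.8 ± 6.19 FPKM in control and 30.2 ± 8.83 FPKM in exercise (SD, n = 4, limma adjusted p = 0.945). In the libraries that resembled blends, control 4 held each of the 10 genes at 0.723 to 1.16 times the sum expected from the kept shares of control 1 and control 3. Exercise 3 held the 9 genes other than Ier3, which had no read there, at 0.346 (Fosl2, from 2 reads) to 1.22 times the sum expected from exercise 1 and exercise 4, with Jun at 0.635.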
